A study of Homo sapiens with 8 samples.

Results

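ARP1 and H929, a pair of established human multiple myeloma cell lines, were compared gene by gene across every genotype of the series. All 8 libraries of the series entered, 4 of ARP1 and 4 of H929, and the 4 libraries of each line carried CHEK1 overexpression, the control of overexpression, CHEK1 knockdown and the control of knockdown, 1 library each. Libraries of the same genotype formed 4 pairs, and each difference is given as ARP1 minus H929. Of the 24351 genes measured, 23345 lie on autosomes and are reported here, and 14419 of these passed the filter of 1 FPKM in at least 2 libraries. FPKM, the unit the authors deposited, counts fragments relative to transcript length and to the size of the library. The comparison describes standing differences between the lines over all genotypes, not effects of CHEK1. The size of a difference could vary between pairs, as given below for IFI27.

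Multiple myeloma is a cancer of plasma cells, the antibody-secreting end stage of the B lineage. Plasma cells keep a secretory programme run by IRF4, PRDM1 and XBP1, and they normally shut down most B cell genes and the HLA class II genes, which present peptides to helper T cells. Myeloma clones differ in which gene a translocation has placed next to the immunoglobulin heavy chain locus, among them NSD2 with FGFR3, MAF and CCND1, and in gains and losses of chromosome arms.

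Each line is 1 line under 4 genotypes. The p-values measure the spread of the line difference over the 4 genotype pairs, with variances moderated across genes. They reach no further than these cultures. The method used to change CHEK1, and whether a line was cloned, are not stated in the labels. CHEK1, the checkpoint kinase targeted in the study, was at 78.2, 114, 61.0 and 51.6 FPKM in ARP1 and at 81.6, 107, 80.7 and 84.8 FPKM in H929, in the order control of overexpression, CHEK1 overexpression, control of knockdown and CHEK1 knockdown, which is the order used for every list of values below. CHEK1 was no lower in the knockdown library of H929 than in its control, and such libraries are named by their label. The ARP1 library labelled knockdown stood apart: its correlations with the H929 libraries across genes were 0.898 to 0.908, against 0.928 to 0.950 for the other ARP1 libraries. Within a line they were 0.941 to 0.978 in ARP1 and 0.964 to 0.982 in H929. The line accounted for 45.8% of the sum of squares over the tested genes, the genotype for 32.7% and the remainder for 21.4%. Genotype and remainder have equal degrees of freedom, so the genotype share is to be read against that of the remainder. The total FPKM of a library lay between 631871 and 693299, and the number of genes at 1 FPKM or more between 12654 and 13636, the 4 ARP1 libraries having the 4 highest counts.

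Both lines carried marks of plasma cells, and those at like levels set the base for the differences. Other plasma cell genes were not at like levels: of 18 tested, 10 were higher in ARP1 and 0 in H929, as given below. SLAMF7 among them was near 0 in H929. SDC1, the syndecan of the plasma cell surface, was at 216, 150, 209 and 223 FPKM in ARP1 and at 180, 156, 207 and 210 in H929. PRDM1, the repressor that drives plasma cell differentiation, CD38, the surface ectoenzyme targeted in myeloma, and JCHAIN, the joining chain of secreted IgA and IgM, likewise had overlapping levels in the lines. The log2 differences were -0.21, 0.04 and 0.09, with adjusted p from limma of 0.16, 0.91 and 0.65. Of 16 markers of T and NK cells, 14 were under 1 FPKM in every library, as were 10 of 13 myeloid, 11 of 15 stromal and epithelial and 8 of 10 erythroid markers. The summed FPKM of the T and NK markers was 1.56 to 2.44 in ARP1 and 2.62 to 15.3 in H929, that of the myeloid markers 2.81 to 5.99 and 2.08 to 2.92, that of the stromal and epithelial markers 1.71 to 6.01 and 7.45 to 17.4, and that of the erythroid markers 1.44 to 9.20 and 0.0625 to 0.916. The members behind these sums were GNLY and the stromal and epithelial PDGFRB and KRT8, called higher in H929, and CD33 and HBD, called higher in ARP1. The part of other cells in the line differences was not tested.

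The genes of the recurrent myeloma translocations did not separate the lines in the way H929 is known for. H929 is described as carrying the translocation that raises NSD2 and FGFR3, a histone methyltransferase and a growth factor receptor. NSD2 was at 111, 114, 102 and 114 FPKM in ARP1 and at 122, 136, 127 and 133 FPKM in H929. The groups did not overlap, but the log2 difference of -0.23 ± 0.08 (SE) had an adjusted p of 0.079. FGFR3 was low in both, from 0.49 to 0.79 FPKM in ARP1 and from 0.74 to 2.09 in H929. MAF, the transcription factor raised by another translocation, was high in both: 127, 89.2, 151 and 168 FPKM in ARP1 and 75, 74.0, 97.4 and 96.8 FPKM in H929 (log2 difference 0.61 ± 0.11, adjusted p = 0.011), with overlap of the groups. ITGB7, an integrin chain known as a MAF target, was at 551 to 617 FPKM in ARP1 and at 456 to 631 in H929. CCND1, the cyclin raised by another translocation, lay between 3.30 and 6.50 FPKM. The low FGFR3 goes against the description of H929 given above, and the lines are called here by their labels.

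A stretch of chromosome 1 had no measured transcript in either line. CDKN2C, the inhibitor of the kinases that partner cyclin D and a gene often lost in myeloma, was listed at 0 in all 8 libraries, and so were its neighbours FAF1, DMRTA2 and C1orf185, which together span chr1:50417550-51148086 on GRCh38. The next gene at higher coordinates with a mean above 1 FPKM in both lines was RNF11, at 3.41 ± 0.47 (SD, n = 4) FPKM in ARP1 and 5.75 ± 0.84 in H929.

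Against that shared base, the lines differed widely: 3922 of the 14419 tested autosomal genes (27.2%) passed an adjusted p of 0.05 by limma. ARP1 was higher at 2001 genes (13.9%) and H929 at 1921 (13.3%), and these percentages are the background for every count of list members below. A gene could pass the filter through 1 line alone, so list counts and medians partly reflect how members entered. The sign was the same in all 4 genotype pairs for 3891 of the 3922. Many differences were small: the median absolute log2 difference of the called genes was 0.72, 1257 were under 1.5-fold and 176 were over 4-fold, 137 of them higher in ARP1 and 39 in H929. A stricter rule, called and at least 2-fold in each of the 4 pairs on the FPKM + 1 scale, kept 289 genes higher in ARP1 (2%) and 131 higher in H929 (0.909%). The differences at 2-fold in all pairs were more numerous on the ARP1 side. ARP1 was the higher line in 51.0% of the calls, a share that moved with the scaling of the libraries: 54.7% after median-ratio scaling (2187 against 1811 genes), 49.5% after quantile normalization (1917 against 1955) and 41.6% when each library was scaled to the same total (1783 against 2507). The libraries of the lines did not overlap at 3882 tested genes (26.9%).

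**Figure D1:**
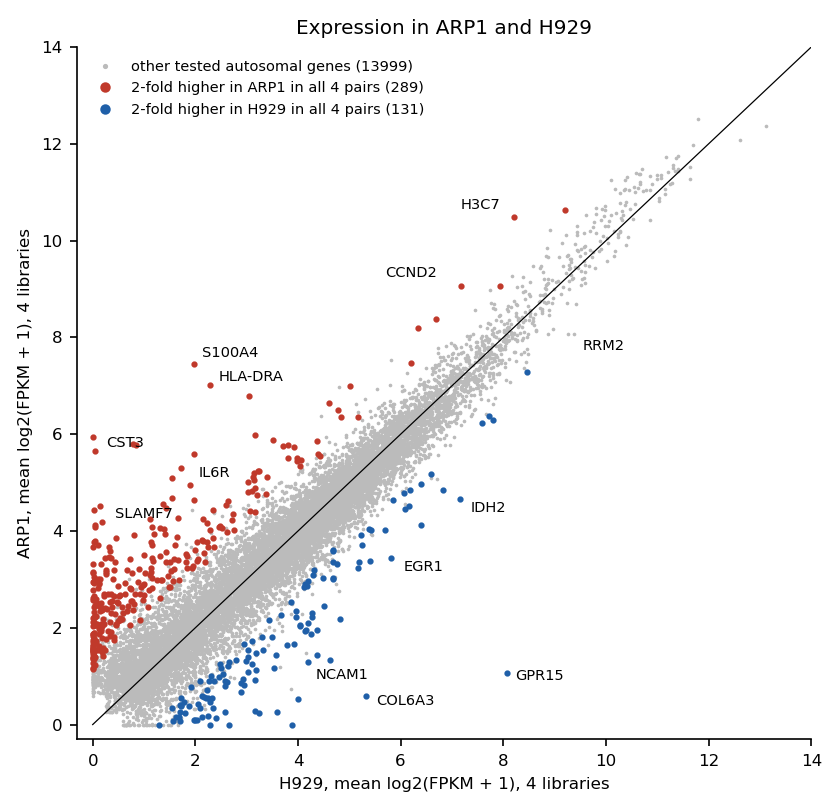
Mean log2(FPKM + 1) of each tested autosomal gene over the 4 H929 libraries (horizontal axis) and the 4 ARP1 libraries (vertical axis). Red points are the 289 genes at least 2-fold higher in ARP1 in all 4 genotype pairs and blue points the 131 genes higher in H929, grey points the other genes, and the line marks equal levels. GPR15 and COL6A3 stand farthest on the H929 side, and the red points crowd along the left edge, where H929 is near 0.

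The genes with the largest ratio on the ARP1 side were near 0 in H929. CST3 (chr20:23626706-23638473 on GRCh38, GENCODE 29), which encodes cystatin C, a secreted inhibitor of cathepsins, was at 50.3, 47.0, 52.9 and 46.1 FPKM in ARP1 and at 0, 0, 0 and 0.154 FPKM in H929 (log2 difference 5.59 ± 0.13, adjusted p = 8.1e-06). S100A4 (chr1:153543613-153550136), a calcium-binding protein linked to cell motility, was at 117, 214, 227 and 165 FPKM in ARP1 and at 0.887, 2.58, 4.70 and 5.12 in H929, a 54.4-fold ratio of means (adjusted p = 8.0e-05). MGMT (chr10:129467184-129768007), the enzyme that removes alkyl groups from guanine in DNA, was at 14.1, 10.7, 11.5 and 11.0 FPKM in ARP1 and was listed at 0 in all 4 H929 libraries (adjusted p = 1.1e-04). In none of these genes did any library of one line reach the range of the other. GLUL, the glutamine synthetase, was at 12.8 to 19.3 FPKM in ARP1 and at most 0.111 in H929, and MRFAP1L1 and the inflammasome-related NLRP2 at 16.4 to 22.5 and 13.3 to 19.1 FPKM in ARP1 against at most 0.0453 and 0.0537 in H929. Of the same kind were ZNF841, with 9.31 to 17.1 FPKM against at most 0.0522, and the histone genes H3C12, H2BC13 and H2AC8.

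In all, 30 genes were at 5 FPKM or more in every ARP1 library and under 1 FPKM in every H929 library, 27 of them coding for protein, while 4 genes showed the reverse pattern. The ARP1 set held BCAT1, a branched-chain amino acid transaminase (14.5 FPKM on average against 0.0761), ARHGAP15, a Rac GTPase-activating protein (13.5 against 0.0282), APBB1IP, an adaptor of integrin activation (9.63 against 0.00845), and BNC2, a zinc finger protein (11.1 against 0.289). The H929 set was COL6A3 with the noncoding DSCR8, ARLNC1 and MIR548XHG. With limits of 10 and 0.5 FPKM, chosen after the data were seen, 8 genes remained in the ARP1 set and 0 in the H929 set. Among noncoding genes LINC01916 reached 51.4 to 77.0 FPKM in ARP1 and was listed at 0 in H929, and MIR99AHG, the host of a miRNA cluster on chromosome 21, was at 37.9 to 74.3 against 1.84 to 5.52 FPKM.

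**Figure D2:**
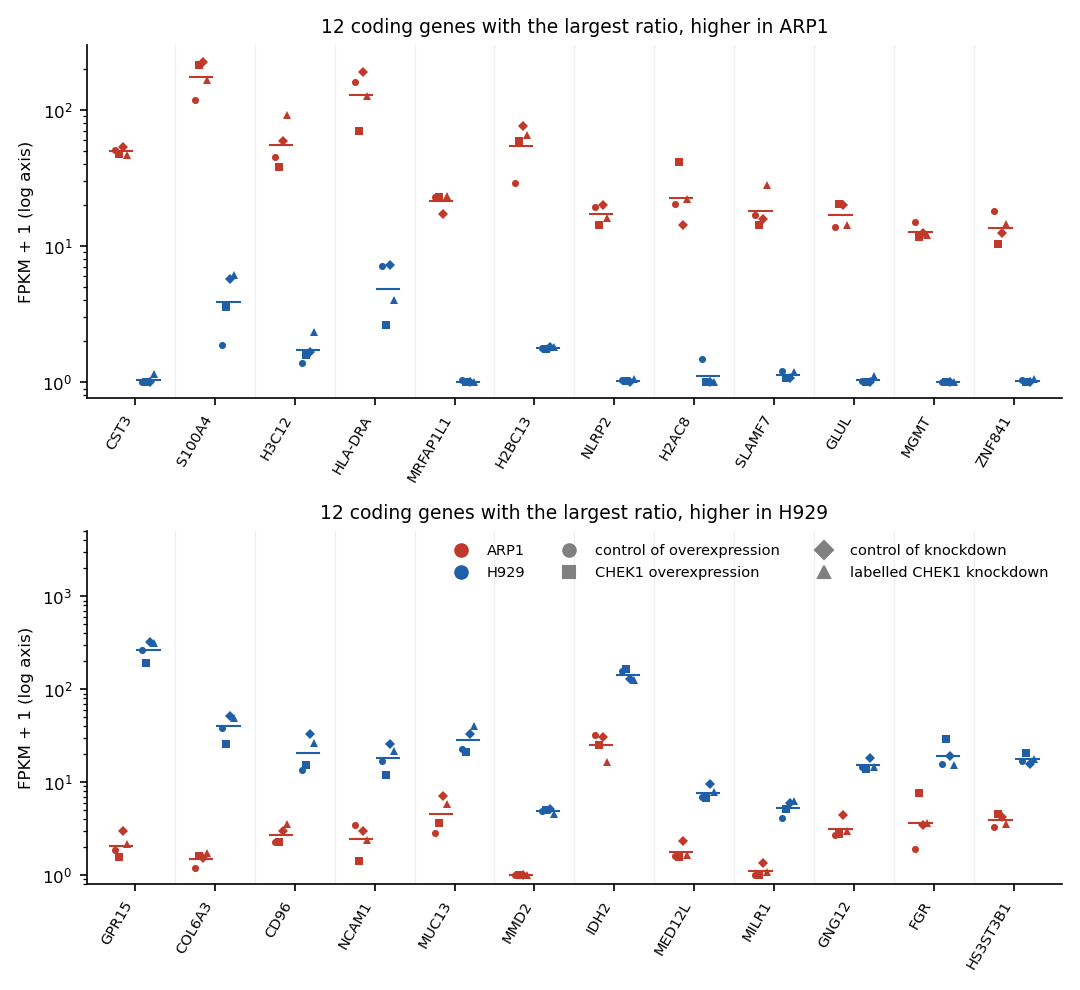
FPKM + 1 on a log axis for the 12 coding genes with the largest ratio in each direction, 1 point per library (ARP1 red, H929 blue, marker shape by genotype), with a bar at the geometric mean of each line. The red and blue points of a gene do not overlap for any of the 24 genes.

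GPR15, a chemoattractant receptor of lymphocyte homing to the gut, had the largest absolute log2 difference of the tested autosomal genes. GPR15 (chr3:98531899-98533150) was at 261, 191, 320 and 317 FPKM in H929 and at 0.884, 0.561, 1.99 and 1.15 FPKM in ARP1, a 238-fold ratio of means (log2 difference -7.00 ± 0.11, adjusted p = 2.3e-06). COL6A3, a chain of collagen VI in the extracellular matrix, was at 37.8, 24.6, 51.1 and 48.5 FPKM in H929 and at no more than 0.717 in ARP1. NCAM1, which encodes CD56, the adhesion molecule used to recognise malignant plasma cells, was at 15.9, 10.9, 24.7 and 20.5 FPKM in H929 and at 2.48, 0.415, 2.02 and 1.42 in ARP1, an 11.4-fold ratio (adjusted p = 3.9e-04). Each of the 4 H929 libraries lay above each ARP1 library for these genes. CD96, a receptor of T and NK cells also found on malignant blood cells, was 11.9-fold higher, MUC13, a membrane mucin, 7.38-fold, GNG12, a G protein subunit, 6.43-fold, and FGR, a SRC family kinase, 5.98-fold. IDH2, the mitochondrial isocitrate dehydrogenase, was already high in ARP1 at 15.7 to 30.9 FPKM and reached 123 to 164 in H929.

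By absolute level, genes for ribosomal proteins were among those with the largest gaps in both directions. RPL41, RPS27, RPL7A and RPL23 had the largest FPKM excess in ARP1 with the histone gene H3C7, and RPL32, PPIA, RRM2, FTL and ENO1 had the largest excess in H929. RRM2, the small subunit of ribonucleotide reductase, was at 264, 323, 297 and 208 FPKM in ARP1 and at 598, 636, 807 and 635 in H929 (2.45-fold, adjusted p = 0.0012). FTL, the ferritin light chain, was at 236 to 309 FPKM in ARP1 and at 422 to 911 in H929. Ribosomal protein genes have many processed copies in the genome, and no source says how reads were split among them.

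The promoters of 3 genes are shown because the genes behind them mark the contrast between the lines and none of the windows overlaps an exon in GENCODE 29. Each is the 250 bases before the RefSeq start (GRCh38.p14), read 5′ to 3′ on the gene's strand. For HLA-DRB1, a class II beta chain higher in ARP1 (chr6:32589849-32590098, minus strand), capitals mark ATTGG or its reverse complement CCAAT, the letters of the Y box that is known from class II promoters, and for ZNF841, near 0 in H929 (chr19:52095766-52096015, minus strand), and MUC13, higher in H929 (chr3:124934752-124935001, minus strand), capitals mark CG dinucleotides, the sites of DNA methylation.
HLA-DRB1: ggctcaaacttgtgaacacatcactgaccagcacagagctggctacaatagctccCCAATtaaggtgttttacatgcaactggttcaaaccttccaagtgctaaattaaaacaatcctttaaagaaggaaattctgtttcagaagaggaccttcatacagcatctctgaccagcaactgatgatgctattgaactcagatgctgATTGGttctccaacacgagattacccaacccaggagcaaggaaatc
ZNF841: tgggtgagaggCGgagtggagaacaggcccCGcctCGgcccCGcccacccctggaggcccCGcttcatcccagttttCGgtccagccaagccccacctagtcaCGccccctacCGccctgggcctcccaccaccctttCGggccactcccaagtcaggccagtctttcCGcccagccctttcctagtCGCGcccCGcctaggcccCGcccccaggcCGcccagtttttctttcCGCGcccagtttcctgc
MUC13: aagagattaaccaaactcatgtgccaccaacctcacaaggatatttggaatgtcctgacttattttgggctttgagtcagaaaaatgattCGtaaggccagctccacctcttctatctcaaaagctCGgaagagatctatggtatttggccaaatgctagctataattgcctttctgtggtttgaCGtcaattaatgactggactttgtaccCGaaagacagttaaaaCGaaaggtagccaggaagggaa
HLA-DRB1 held the ATTGG letters 46 bases before its start, and 1 CG. Promoters of 10 of the 11 HLA class II chains and CD74 found in the table held ATTGG on one strand or the other (90.9%), against 35.5% of the 9330 tested coding genes with a promoter there, and their median number of CG dinucleotides was 3 against 21. ZNF841 held 17 CG dinucleotides and MUC13 held 5. At least 10 CG dinucleotides were found in 75.9% of the promoters of coding genes 2-fold higher in ARP1 and 65.9% of those 2-fold higher in H929, against 85.1% of all tested ones. For coding ZNF genes of chromosome 19 the share was 87.3% of those called higher in ARP1 and 87.7% of those tested. These are counts of letters, and methylation was not measured.

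HLA class II genes were mostly higher in ARP1. Of 18 class II genes measured 15 were tested, 10 were called higher in ARP1 and 1 higher in H929, with a median log2 difference of 1.26 against 0.01 over all tested genes. HLA-DRA, the alpha chain shared by all DR molecules (chr6:32439842-32445046), was at 159, 69.6, 188 and 126 FPKM in ARP1 and at 6.22, 1.66, 6.30 and 3.04 in H929, a 31.6-fold ratio (log2 difference 4.72 ± 0.11, adjusted p = 8.1e-06). The groups lay far apart, and in both lines the library with CHEK1 overexpression was the lowest. The DP chains HLA-DPA1 and HLA-DPB1 had log2 differences of 3.59 ± 0.21 and 3.39 ± 0.32, and HLA-DRB1 was at 1.59 to 5.58 FPKM in ARP1 and at most 0.125 in H929. HLA-DMA and HLA-DMB, which load peptides, had differences of 1.62 and 2.35, and CD74, the invariant chain, was at 49.5, 14.4, 46.4 and 31.2 FPKM in ARP1 and at 11.4, 1.97, 12.7 and 10.7 in H929. CIITA, the coactivator that switches class II genes on, differed less, at 20.8 to 36.2 FPKM in ARP1 against 13 to 18.9 in H929 (1.82-fold, adjusted p = 0.011), and the promoter-binding RFX5 by a log2 of 0.40 with overlapping groups. CTSS, the cathepsin that trims the invariant chain, went the other way, at 2.97 to 4.93 FPKM in ARP1 against 10.4 to 26.8 in H929 (5.23-fold higher in H929, adjusted p = 0.0030). HLA genes are variable and alike, so the split of their reads between genes is uncertain.

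Of 17 tested class I genes, 6 were called higher in ARP1, 0 were called higher in H929 and 11 did not pass, with a median of 0.26 and 3 negative differences. HLA-B was at 541, 404, 569 and 598 FPKM in ARP1 and at 266, 248, 361 and 368 in H929 (1.70-fold, adjusted p = 0.0034), with no overlap. HLA-C was 1.57-fold higher, NLRC5, the class I coactivator, 1.48-fold and B2M, the light chain, 1.22-fold (adjusted p = 0.046). Under quantile normalization the B2M difference was -0.0018 (adjusted p = 0.99).

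**Figure D3:**
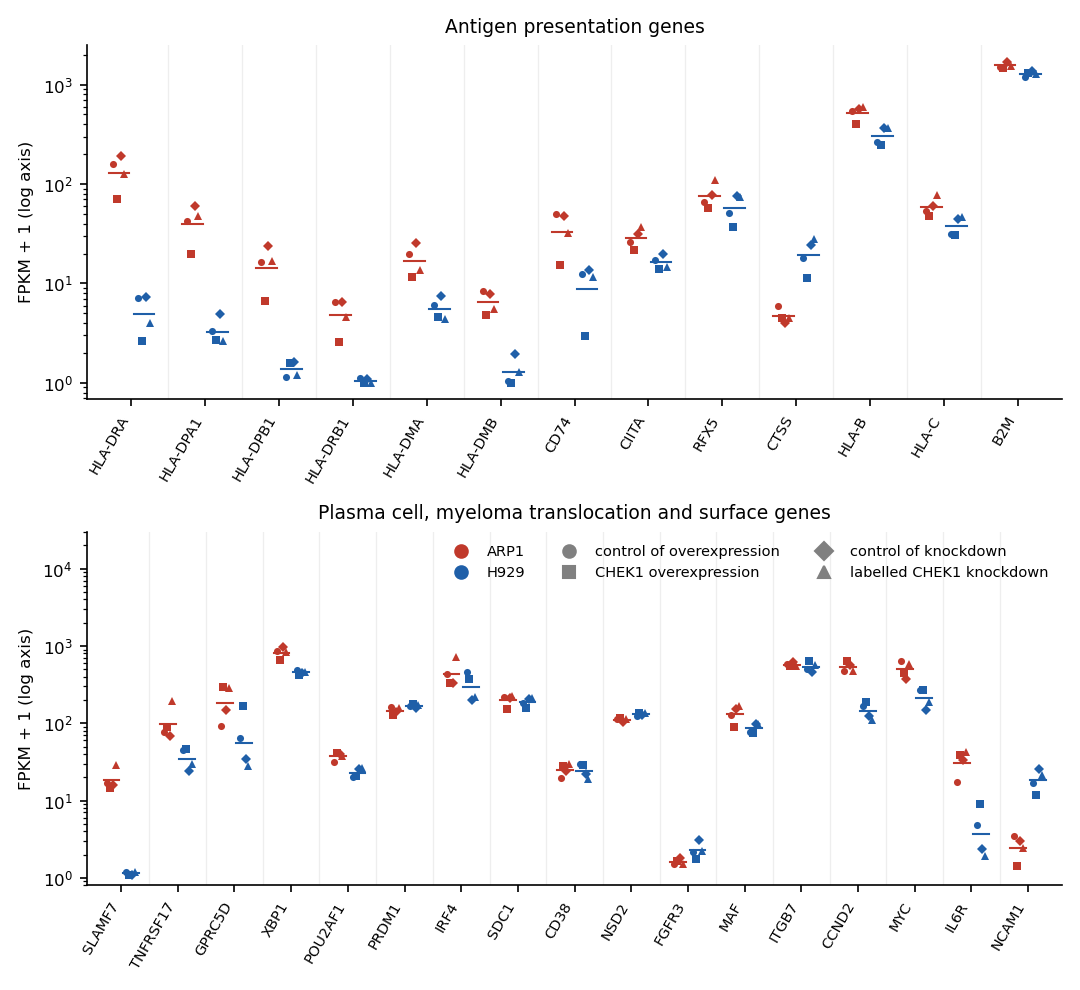
FPKM + 1 on a log axis by library for antigen presentation genes (top) and for plasma cell, translocation and surface genes (bottom), with ARP1 in red, H929 in blue, marker shape by genotype and bars at the geometric means. Class II genes sit higher in ARP1 while CTSS sits higher in H929, and PRDM1, SDC1, CD38 and ITGB7 overlap between the lines.

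Plasma cell genes moved in one direction where they differed. Of 18 tested, 10 were higher in ARP1 and 0 in H929 (median 0.75). Without the ARP1 library labelled knockdown, which also takes its H929 partner out of the paired difference, 9 of 17 were higher in ARP1. SLAMF7, a surface receptor targeted by an antibody in myeloma, was at 16.1, 13.3, 14.9 and 27.4 FPKM in ARP1 and at 0.201, 0.0796, 0.0778 and 0.196 in H929 (log2 difference 4.0 ± 0.18, adjusted p = 1.5e-04). TNFRSF17, which encodes the drug target BCMA, was at 76.2, 88.6, 68.4 and 195 FPKM in ARP1 and at 43.6, 45.6, 23 and 28.8 in H929 (3.04-fold, adjusted p = 0.014). Neither gene overlapped between the lines, and the ARP1 library labelled knockdown was the highest for both. GPRC5D, an orphan receptor and drug target, was 2.87-fold higher on average, but its groups overlapped, 90.4 to 296 against 26.9 to 164 FPKM. XBP1, the transcription factor of the secretory programme, was at 658 to 976 FPKM in ARP1 and at 425 to 483 in H929 (1.82-fold), and POU2AF1, a B lineage coactivator, MZB1, an endoplasmic reticulum protein of antibody assembly, and SEC11C, a signal peptidase subunit, had log2 differences of 0.71, 0.86 and 1.14.

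Of 11 tested B cell genes, 4 were higher in ARP1 and 0 in H929 (median 0.68). The 20 listed genes summed to 102 to 155 FPKM in ARP1 and 78.9 to 93.6 FPKM in H929, and 9 of them were under 1 FPKM in every library. PAX5, the factor that keeps B cell identity, was at 2.72, 3.75, 2.41 and 1.06 FPKM in ARP1 and was listed at 0 in all H929 libraries (adjusted p = 0.0047). CD79A, a signalling chain of the B cell receptor, was at 0.929 to 3.56 FPKM in ARP1 against 0.0605 to 0.777 in H929. PAX5 and CD79A passed the filter of 1 FPKM through ARP1 alone, so their calls are partly set by how they entered. CD74 and CIITA were the remaining called genes, both also on the class II list.

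Among cyclins and translocation genes, 3 of 12 tested were higher in ARP1 and 1 in H929. CCND2, the D cyclin of MAF-driven myeloma, was at 473, 647, 574 and 468 FPKM in ARP1 and at 166, 185, 125 and 108 in H929 (3.70-fold, adjusted p = 4.9e-04). MYC, the growth-driving transcription factor, was at 634, 446, 375 and 591 FPKM in ARP1 and at 270, 267, 149 and 188 in H929 (2.34-fold, adjusted p = 0.0030). CCND3 was the reverse, at 18.9 to 39.5 FPKM in ARP1 against 50.6 to 63.6 in H929 (1.77-fold higher in H929, adjusted p = 0.011). None of these 3 genes overlapped between the lines.

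Genes known as tumour suppressors or as mutated in myeloma were split, with 6 of 27 tested higher in each line. CDKN2B, a cell cycle inhibitor, was at 20.6 to 40.4 FPKM in ARP1 against 9.63 to 13 in H929, and TENT5C, a poly(A) polymerase often mutated in myeloma, at 37.8 to 60 against 21.0 to 29.2. EGR1, an immediate early transcription factor, was at 54.7, 43.1, 80.8 and 49.7 FPKM in H929 and at 6.98, 12.3, 18.9 and 5.50 in ARP1 (5.23-fold higher in H929, adjusted p = 0.0012). TRAF3, a brake on noncanonical NF-kB signalling, was 2.08-fold higher in H929 and SP140, a nuclear body protein of lymphocytes, 4.18-fold. Of 18 NF-kB genes, 3 were higher in ARP1 and 2 in H929: ICAM1 (log2 difference 2.02), BCL3 (1.0) and NFKBIA (0.38) on one side, RELA (-0.65) and IKBKB (-0.61) on the other. These NF-kB counts lie near the shares over all tested genes, 13.9% and 13.3%.

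Surface antigens and drug targets also went both ways, 7 of 24 higher in ARP1 and 3 in H929. Besides SLAMF7, TNFRSF17 and GPRC5D these included IKZF3, a target of lenalidomide (0.69), BCL2 (1.41) and CD44 (0.62) in ARP1. In H929 they were NCAM1, XPO1, the nuclear export receptor (-0.36), and CD52, a target of alemtuzumab, which was at 12.4, 28.4, 5.94 and 5.53 FPKM in H929 and at 0.313, 2.92, 1.42 and 1.08 in ARP1. Of 25 adhesion and migration genes, 6 were higher in each line. ICAM3 (2.31) and the chemokine receptor CCR10 (1.75) were higher in ARP1, and the integrin chains ITGB1 (-1.08), ITGA5 (-0.98) and ITGA4 (-0.40), which bind fibronectin, were higher in H929.

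Cytokine receptors differed at their best-known myeloma member. IL6R, the receptor chain for interleukin 6, a growth factor of myeloma cells, was at 16.2, 37.4, 32.0 and 40.9 FPKM in ARP1 and at 3.79, 7.98, 1.36 and 0.909 in H929 (9.02-fold, adjusted p = 0.0050). The groups did not overlap, although the values spread widely within each line. Of 28 tested genes on that list, 7 were higher in ARP1, STAT3 (0.50) and SOCS3 (1.0) among them, and 4 in H929, led by TNFSF10, the death ligand TRAIL (3.65-fold), with JAK1 (-0.68). Among 24 genes of the BCL2 family and apoptosis, 5 were higher in ARP1 and 2 in H929. BCL2, the survival factor blocked by venetoclax, was at 51.1, 44.8, 54.4 and 110 FPKM in ARP1 and at 22.9, 13.4, 32.5 and 24.2 in H929 (2.79-fold, adjusted p = 0.0066). The killers BIK, BMF and BBC3 and the death receptor FAS were also higher in ARP1, while BAK1 was 1.51-fold higher in H929.

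Of 25 tested interferon-stimulated genes, 7 were higher in H929, 0 were higher in ARP1 and 18 did not pass. A negative difference was found for 22 of them, and the median was -0.41. IFI6 was at 10.6, 5.80, 22.8 and 17.9 FPKM in H929 and at 3.94, 1.06, 3.33 and 1.11 in ARP1 (6.05-fold, adjusted p = 0.0048). IFIT3, an RNA-binding antiviral protein, was at 1.88 to 6.18 FPKM in H929 and 0.113 to 0.886 in ARP1. IFI27 reached 74.1 and 72.4 FPKM in the knockdown-arm H929 libraries and stood at 6.77 and 1.41 in the others, against 1.64 to 2.04 in ARP1, so its groups overlapped (adjusted p = 0.049). Within H929 the 2 libraries of the knockdown arm were the highest for IFI6, IFIT3 and IFI27. Of 13 genes sensing DNA or RNA in the cytosol, 6 were higher in H929, among them STING1 (33.4 to 39.9 against 17 to 25.7 FPKM), MAVS (1.77-fold), CGAS (1.53-fold), CASP1 (3.15-fold) and NLRP1 (2.85-fold). AIM2, a DNA sensor of the inflammasome, was the 1 gene higher in ARP1 (4.02-fold, adjusted p = 0.0019).

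Ribosomal protein genes were mostly higher in ARP1. Of 43 tested, 29 were higher in ARP1 and 1, RPL32, in H929, 42 had a positive difference, and the median was 0.55. It stayed between 0.29 and 0.58 under the other scalings of the libraries. RPS27, a protein of the small subunit, was at 2110, 2148, 2023 and 3765 FPKM in ARP1 and at 1045, 976, 1012 and 1424 in H929 (2.25-fold, adjusted p = 0.0011). The groups did not overlap, and the library labelled knockdown was the highest of each line. RPL13A, a protein of the large subunit, was 1.83-fold higher and lies on chromosome 19, whose genes were higher in ARP1 as a group, as given below.

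**Figure D4:**
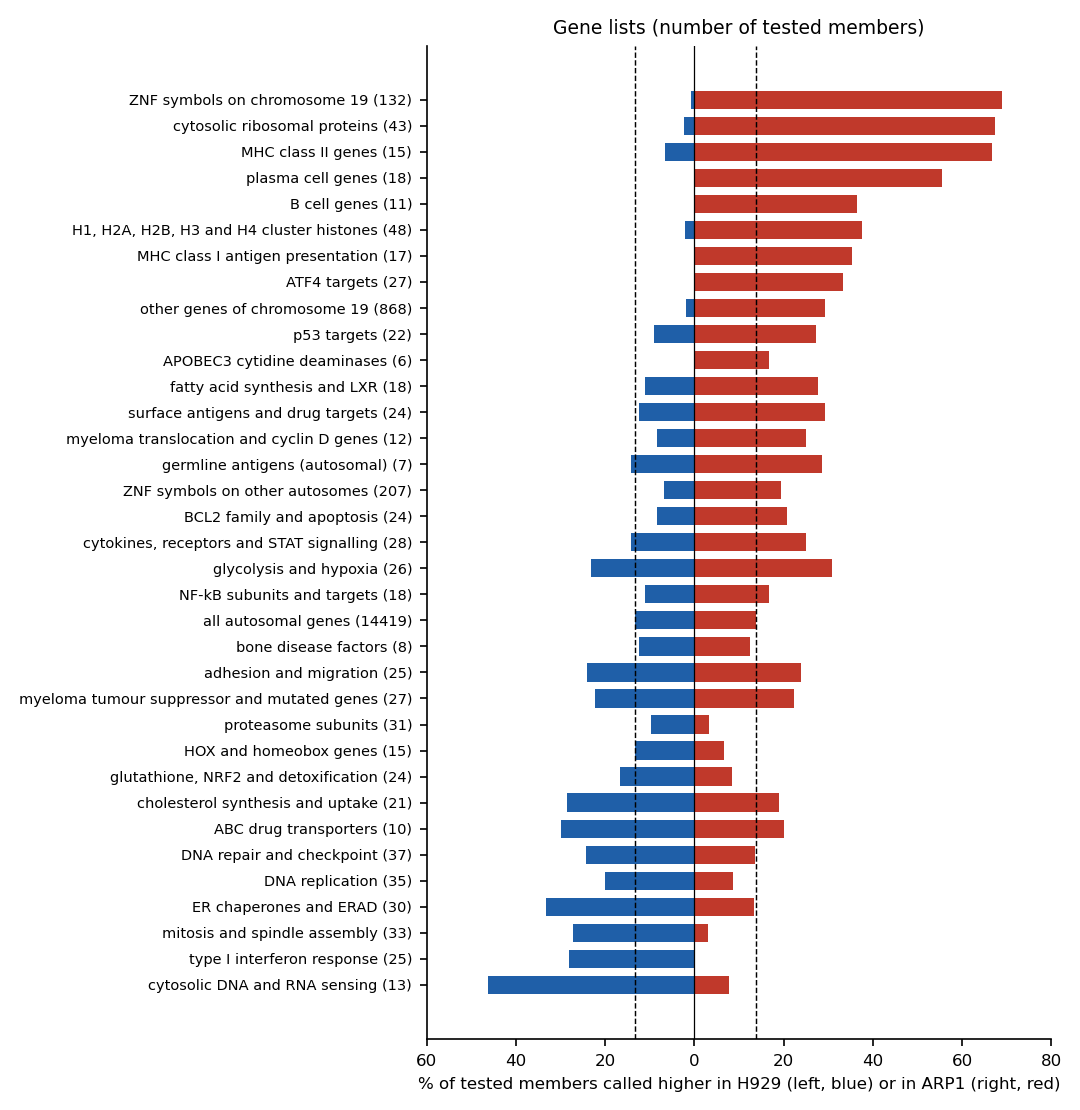
Share of the tested members of each gene list, marker lists left out, called higher in ARP1 (red, right) or in H929 (blue, left), with the number of tested members in parentheses. Dashed lines mark the shares over all tested autosomal genes, 13.9% and 13.3%; ribosomal proteins, class II genes and the ZNF genes of chromosome 19 reach farthest to the right, and DNA and RNA sensing farthest to the left.

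Genes of cell division that differed lay mainly on the H929 side. Of 33 mitosis and spindle genes, 9 were higher in H929 and 1, KIF18A, in ARP1, with 27 negative differences and a median of -0.30. SPC25 and NDC80, subunits of the complex that binds microtubules at kinetochores, were 1.70-fold and 1.53-fold higher in H929, and PRC1, a midzone crosslinker, was at 82.9 to 94.4 FPKM in H929 and 50.8 to 61.5 in ARP1. Among 35 replication genes, 7 were higher in H929, RRM2, TYMS (1.82-fold) and ORC1 (1.70-fold) among them, and 3 in ARP1, led by LIG1 (1.69-fold). The replication median was -0.06, and 0.11 without the ARP1 library labelled knockdown and hence without its pair. Among 37 repair and checkpoint genes, 5 were higher in ARP1 and 9 in H929. ATR (-0.51), ATM (-0.48), CLSPN (-0.51), RAD17 (-0.70), CDC25A (-0.60) and CDC25B (-0.64), which act around CHEK1 in the checkpoint, were higher in H929, and CHEK2 (0.68) and BRCA1 (0.41) were higher in ARP1. FANCL, a ubiquitin ligase of crosslink repair, was at 28.0 to 32.7 FPKM in H929 and 12.1 to 17.7 in ARP1.

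The protein-folding and stress genes went both ways. Of 30 chaperones and degradation factors of the endoplasmic reticulum, 10 were higher in H929 and 4 in ARP1. HSPA5, the chaperone BiP, was at 170 to 270 FPKM in H929 and 85.7 to 180 in ARP1 (1.66-fold), DNAJC3 was 1.77-fold and PDIA4 1.58-fold higher in H929, whereas ERN1 (1.04), HERPUD1 (0.76) and XBP1 were higher in ARP1. Of 27 targets of ATF4, the factor of the amino acid response, 9 were higher in ARP1 and 0 in H929 (median 0.46). SESN2, an inhibitor of growth signalling, was at 8.57, 11.5, 23.6 and 117 FPKM in ARP1, against 6.57, 5.76, 7.86 and 25.9 in H929. INHBE, a subunit of activin E, was at 3.19, 5.54, 10.8 and 80.9 against 1.56, 1.38, 1.91 and 10.4. The library labelled knockdown was the highest of its line in all 4 of these series, and the groups overlapped. Without the ARP1 library labelled knockdown, and hence without its pair, 7 ATF4 targets were higher in ARP1 and 1 in H929, with a median of 0.31. Of 31 proteasome subunits, 1 was higher in ARP1 (PSMB6) and 3 in H929, counts that became 6 and 3 without that library and its pair.

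Metabolic lists had calls on both sides, as did the tested genes as a whole (13.9% higher in ARP1 and 13.3% in H929). In glycolysis, 8 of 26 were higher in ARP1 and 6 in H929, and a pair of glucose transporters differed in opposite directions: SLC2A3 was at 3.73 to 10.4 FPKM in ARP1 against 0.893 to 3.10 in H929 (4.48-fold, adjusted p = 0.0025), and SLC2A1 at 5.29 to 11.2 in ARP1 and 17.5 to 21.8 in H929 (2.47-fold higher in H929, adjusted p = 0.0032). In cholesterol synthesis, 4 of 21 were higher in ARP1 and 6 in H929, and SQLE, an enzyme that oxidises squalene, was 2.46-fold higher in ARP1. In fatty acid synthesis the counts were 5 and 2 of 18. Among 24 genes of glutathione and detoxification, 2 metallothioneins, MT2A (4.22-fold) and MT1F, were higher in ARP1, and AKR1C3, AKR1B1 (1.66-fold), HMOX1, the heme oxygenase (2.59-fold), and GPX4 (1.27-fold) in H929. Of 10 ABC transporters, ABCG1 and ABCC1 were higher in ARP1, and ABCA2, ABCC4 and the drug pump ABCG2 in H929. Among 22 p53 targets, 6 were higher in ARP1, BTG2 (3.98-fold) with the largest difference, and 2 in H929, led by GADD45A (2.44-fold).

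Most of the germline genes were below the filter. PRAME, an antigen of testis and tumours, was at 20.2, 19.9, 35.2 and 14.6 FPKM in ARP1 and at 1.05, 1.11, 3.96 and 1.48 in H929 (11.8-fold, adjusted p = 2.6e-04), while ACTL8 was 4.59-fold higher in H929. IGF2BP3, an oncofetal RNA-binding protein, was 1.85-fold higher in ARP1, so that 2 and 1 of 7 tested autosomal germline genes passed. Of 15 homeobox genes tested, 1 was higher in ARP1 and 2, MEIS2 and TGIF1, in H929, near or below the shares over all tested genes. Of 8 bone disease factors, TNFRSF11A, the receptor RANK, was 1.93-fold higher in ARP1, and MMP13, a collagenase, was at 1.21 to 3.11 FPKM in H929 and at most 0.144 in ARP1. Of 6 APOBEC3 deaminases, APOBEC3G was higher in ARP1, at 1.72 to 6.21 FPKM against at most 0.271.

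Position on the chromosome, which the choice of genes did not use, also separated the lines. The median log2 difference ran from -0.31 on chromosome 21 (167 genes) and -0.26 on chromosome 7 (701 genes) to 0.23 on chromosome 16 (773 genes) and 0.33 on chromosome 19 (1000 genes), a spread of 0.64. On chromosome 19, 346 genes (34.6%) were higher in ARP1 and 17 (1.7%) in H929. On chromosome 7 the counts were 46 (6.56%) and 218 (31.1%). All 4 genotype pairs gave these 4 chromosomes the same sign, from 0.29 to 0.41 on chromosome 19 and from -0.32 to -0.23 on chromosome 7. Such agreement was not particular to them. Most autosomes kept the same sign in all 4 pairs, even chromosome 5, whose pair medians ran from -0.067 to -0.0071. Levels of RNA do not give the number of gene copies, which was not measured.

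**Figure D5:**
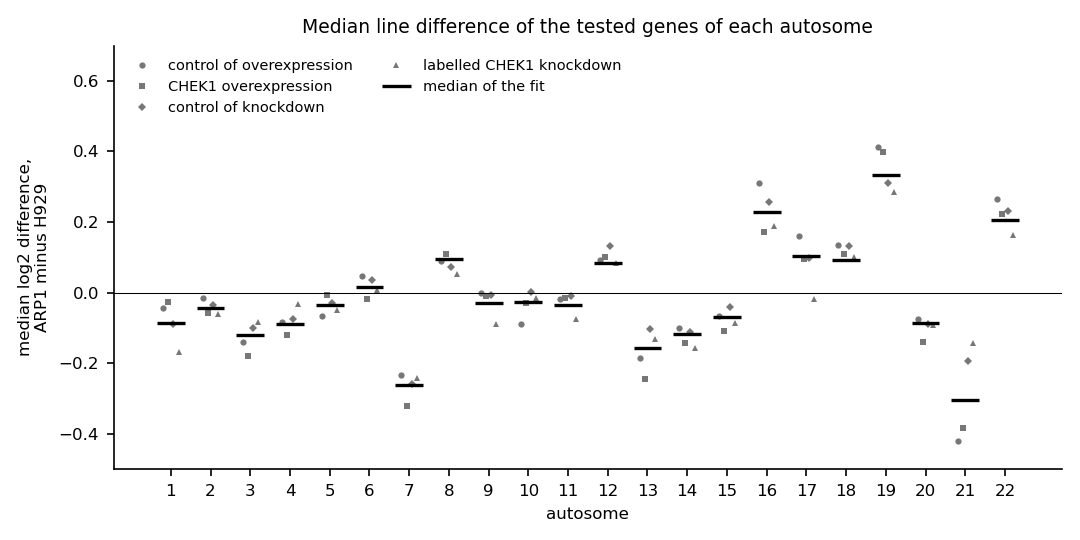
Median log2 difference (ARP1 minus H929) of the tested genes of each autosome, in each of the 4 genotype pairs (grey points, marker by genotype) and in the fit (black bars). Chromosomes 7 and 21 lie below 0 and chromosomes 16, 19 and 22 above 0 in all 4 pairs, and most other autosomes also keep the same sign in all 4.

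In windows of 10 Mb the differences were steeper. Of 213 windows with at least 20 tested coding genes, 10 had a median under -0.5 and 2 a median over 0.5, and in 152 the 4 pair medians shared a sign. The end of chromosome 14, from 100 to 110 Mb, was lowest at -0.86 (pairs -1.02 to -0.72): 34 of 47 genes were higher in H929 and 0 in ARP1. It holds TRAF3, given above, AKT1, a growth kinase, at a mean of 34.0 FPKM in ARP1 and 95.2 in H929, INF2, a formin, at 9.68 and 35.6, and GPR132 at 0.623 and 6.52. On chromosome 1 the windows from 50, 60 and 70 Mb had medians of -0.76, -0.82 and -0.65, and here GNG12 and WLS, the carrier of WNT ligands (82.0 against 211 FPKM), were higher in H929. This is the side of chromosome 1 where CDKN2C and FAF1 were listed at 0 in both lines. The highest window lay on chromosome 8 from 120 to 130 Mb, with a median of 0.80 (pairs 0.62 to 0.87): all 26 genes had a positive difference and 21 were called higher in ARP1. MYC and its neighbours TRIB1 (133 against 31.6 FPKM), SQLE, NSMCE2 (47.3 against 21.9) and CYRIB (78.2 against 37.2) were all among them. AKT1, INF2, GPR132, WLS, TRIB1, NSMCE2 and CYRIB were chosen after their values were seen.

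The end of chromosome 19, from 50 to 60 Mb, had a median of 0.68, with 81 of 125 genes higher in ARP1, 0 higher in H929 and 33 2-fold higher in all pairs. This is the home of clustered KRAB zinc finger genes, most of which encode repressors of transposable elements, and they were grouped after the values were seen. Of 132 tested genes with a ZNF symbol on chromosome 19, 91 were higher in ARP1 and 1, ZNF493, in H929, 47 were 2-fold higher in all pairs, and the median was 1.0. The 868 other genes of chromosome 19 had a median of 0.30 and 24 at 2-fold, and the 207 ZNF genes of the other autosomes a median of 0.07 and 11 at 2-fold. ZNF432 (chr19:52031379-52095738) overlaps ZNF841 (chr19:52064466-52095765) on the same strand, so they are not separate loci. ZNF432 was at 11.2, 7.58, 7.42 and 9.98 FPKM in ARP1 and at 0, 0.0358, 0 and 0.528 in H929 (adjusted p = 3.4e-04 by limma). ZNF480, ZNF417, ZNF551, ZNF586 and ZNF780B were likewise at 5 FPKM or more in every ARP1 library and under 1 in every H929 library. ZNF genes share repeated sequence, so reads may be split between them. Other genes of the chromosome with large differences were PEPD, a dipeptidase, at 27.7 to 39.7 FPKM in ARP1 against 0.879 to 3.20 in H929, and the myeloid inhibitory receptor CD33.

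The clustered histone genes, also grouped after their values were seen, gave 18 of 48 tested higher in ARP1 and 1, H4C9, in H929, with a median of 0.23. H3C7 was at 1089, 955, 1676 and 2416 FPKM in ARP1 and at 217, 256, 404 and 342 in H929 (5.04-fold, adjusted p = 4.9e-04), and H3C12 at 37.5 to 91.5 against 0.397 to 1.34. Messages of these genes mostly lack a poly(A) tail, their copies are nearly alike, and the libraries were selected for poly(A), so their levels here are uncertain; the part of the selection in the difference was not tested.

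Full swaps of the dominant transcript between the lines were few. Among 6047 genes at 10 FPKM or more in every library, 14 (0.232%) had a dominant transcript in all 4 ARP1 libraries and another in all 4 H929 libraries. The 6047 include genes with only 1 listed transcript, which could not qualify, and shifts in share without a swap were not counted. In 9 of the 14 the shares of both transcripts did not overlap between the lines, and in the remaining 5, METTL26, CSNK1E, QTRT2, QRICH1 and DLEU2, the shares of at least 1 of them did. The clearest coding case was RASGRP4, an exchange factor for RAS, in which transcript RASGRP4-207 made up 42.3 to 51.3% of the gene's FPKM in ARP1 and 9.19 to 20.8% in H929, and RASGRP4-205 made up 33.7 to 53% in H929 and at most 2.59% in ARP1. In SNRPB, a core spliceosome protein, transcript SNRPB-201 made up 54.2 to 57.7% in ARP1 and 41.1 to 47.0% in H929. FBRSL1, P4HA1 and PAIP1 were of the same kind. These shares are estimates of the authors' pipeline and were not tested.

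The line difference itself was compared between genotypes by an interaction term. Between the overexpression arm and the knockdown arm, 0 of 14419 genes passed an adjusted p of 0.05 by limma, with 1155 (8.01%) at an unadjusted p under 0.05, and between perturbed and control libraries 0 passed, with 410 (2.84%) unadjusted. With 2 residual degrees of freedom these tests do not show that the line differences were equal across genotypes.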

How the data were processed

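The authors deposited 1 table of FPKM per transcript for the 8 libraries, and no counts, so the depth in reads is unknown. Per the submitters' processing notes, Bowtie 0.12.2, HISAT2 2.0 and StringTie 1.3.0 were used and mm8, a mouse build, is named. The identifiers are human, and no source used here names a human build. Of 88209 transcripts, 87707 matched GENCODE 29 (GRCh38), whose coordinates are printed, and their FPKM were summed per gene. Genes with 1 FPKM in at least 2 libraries were fitted as log2(FPKM + 1) with limma 3.58.1 in R 4.3.3, with genotype and line as terms and Benjamini-Hochberg adjustment over the 14905 tested genes of all chromosomes, of which the autosomal ones are reported. Fold changes on the FPKM + 1 scale understate the change of low genes; ratios of means use FPKM itself. In bulk samples, fewer cells of a type and less RNA per cell cannot be told apart.

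Genotype, from the labels, pairs the libraries: same-genotype libraries deviated together, with correlations of 0.193 to 0.258 in all 4 pairs. Correlations between libraries of unlike genotype were not computed. Whether genotype or only its arm is what the pairs share was therefore not tested. Tested on simulated data with 14905 genes, the fit recovered 59 of 100 genes changed by a log2 of 1 and 91 of 100 changed by a log2 of 2, with 10 false calls. Only these genes were changed, a far smaller share than was called in the data. The adjustment depends on that share, so the figures do not give the recovery or the false calls of the real comparison. The members and lists were chosen with earlier results of these data known. Named genes were the 12 with the largest smallest-pair ratio and the 5 with the largest FPKM gap per direction, up to 6 per list, 3 noncoding ones per direction and up to 6 for transcripts; genes named outside this rule were chosen after their values were seen. No table of chromosome arms was used here, so whole chromosomes and 10 Mb windows by gene start stand in for arms. Alternatives changed the pseudocount, filter, scaling, block, moderation, transcripts and libraries used. Figures were drawn with matplotlib 3.10.9. Results for a few genes are not reported here.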

Additional observations from a re-analysis of the deposited data

Results flagged for a closer look

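For the 31 genes given with every library, 62 groups of 4 libraries were checked for 1 library far from the other 3 (a gap to the nearest that exceeded Dixon's 95% critical value), and 12 groups had one. Chance alone gives such a gap in about 1 group of every 20 if the 4 values are replicates of 1 condition. Here the libraries of a group differ in genotype, and many of the genes were chosen by their values. That rate therefore cannot be set against the 12 groups, which are listed as a description. In ARP1, the library labelled knockdown stood far above its group for 5 genes: BCL2 at 110 FPKM, TNFRSF17 at 195, SESN2 at 117, INHBE at 80.9 and RPS27 at 3765. In H929, the library labelled knockdown stood above its group for SESN2 at 25.9 FPKM, INHBE at 10.4 and RPS27 at 1424, and also for CST3 at 0.154 and ZNF432 at 0.528, where the other 3 libraries were at or near 0. In the H929 library with CHEK1 overexpression, CHEK1 was high at 107 FPKM. PRAME was high at 3.96 FPKM in the H929 control of knockdown.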

How the results depend on the processing

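The 2-fold counts were 289 higher in ARP1 and 131 higher in H929. They became 532 and 240 with a pseudocount of 0.1, 674 and 495 at 1.5-fold, 495 and 265 in the controls alone, 477 and 243 in the overexpression arm alone and 480 and 342 in the knockdown arm alone, where fewer pairs must pass. The called counts of 2001 and 1921 became 654 and 501 in the knockdown arm alone and 1217 and 1120 for transcripts in place of genes. With no replicate block, so that the genotype pairing is not used, they were 1595 and 1489. Leaving out 1 library at a time gave 975 to 2140 and 913 to 1906 called genes, and 329 to 373 and 155 to 209 genes at 2-fold. In the paired fit the partner of a library left out no longer informs the line difference. Each of these fits therefore loses a whole genotype pair, and its effect cannot be assigned to 1 library. Fewer pairs then have to pass the 2-fold rule. The called counts fell by over 1.5 times without the CHEK1 overexpression library or either control of ARP1 or of H929, and not without either library labelled knockdown. The 2-fold count of H929 rose to 209 without the CHEK1 overexpression library of either line, again with fewer pairs to pass. The genes listed in one line alone fell from 30 to 8 and from 4 to 0 under stricter limits chosen after the data were seen. Signs turned for B2M under quantile normalization (log2 -0.0018, adjusted p = 0.99) and, in the overexpression arm alone, for PBX3 (-0.53, adjusted p = 0.046) and POLD1 (0.33, adjusted p = 0.050). The cause was not tested. Without the ARP1 library labelled knockdown, chosen after the data were seen, 3288 of the 3922 genes were called again among 4012, and called members higher in ARP1 and in H929 went from 3 and 2 to 3 and 4 for NF-kB, from 5 and 2 to 6 and 4 for BCL2 and apoptosis, from 5 and 2 to 3 and 2 for fatty acid synthesis, from 1 and 1 to 2 and 2 for bone disease, from 2 and 3 to 1 and 2 for ABC transporters, and from 18 and 1 to 21 and 3 for cluster histones. Under other scalings the median sign turned for homeobox, NF-kB, bone disease, fatty acid, myeloid marker and surface antigen lists.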
